A study of Rattus norvegicus with 210 samples.

Results

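Female Sprague-Dawley rats exposed perinatally to the highest dose of diethylstilbestrol (DES) were compared with vehicle-exposed females in the mediobasal hypothalamus (MBH) at postnatal day (PND) 22. The comparison held the 10 libraries that the labels place in these 2 groups, D12 and control, with 5 libraries in each, of 210 libraries in the series. Dams of the D12 group received 12 µg DES per kg body weight daily by gavage from gestation day 7 to birth and again from the day after birth to PND22, and control dams received corn oil alone on the same days. RNA was sequenced from the MBH and the preoptic area (POA) of these rats and of others given lower DES doses (3 and 6 µg per kg per day, D3 and D6) or ketoconazole, at PND22, PND42 and PND90. The question put by the comparison was whether this exposure, given through the dam, altered gene expression in the hypothalamus just before puberty. The labels do not say which rats were littermates, so p-values measure the spread between these libraries only.

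DES is a potent synthetic estrogen that binds and activates the nuclear estrogen receptors ERα (Esr1) and ERβ (Esr2). The MBH holds the arcuate nucleus, whose kisspeptin neurons drive the pulses of gonadotropin-releasing hormone (GnRH) that start puberty, and the ventromedial nucleus, rich in Esr1. Arcuate neurons that make Pomc, Agrp and other peptides also control feeding and growth hormone release.

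Depth was similar in both groups, at 16472714 to 24204447 counts per D12 library (median 20782730) and 18459642 to 22522907 per control library (median 20719423). Levels below are CPM, the counts of a gene scaled to a library total of 1000000, in the order of replicates 1 to 5, and 0 counts allowed at most 0.182 CPM in these libraries, for counting error only. Fold changes are log2 values of D12 over control. A gene was called when edgeR's quasi-likelihood test gave a Benjamini-Hochberg adjusted p under 0.05, with no limit on the fold.

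D12 replicate 4 stood apart from the other D12 libraries in its regional markers. The summed level of 6 mammillary and supramammillary transcripts was 31.7, 31.0, 24.7, 4.01 and 27.7 CPM in the D12 libraries and 20.6 to 59.0 CPM in controls. Foxb1, a transcription factor of the mammillary body, measured 1.15 CPM in D12 replicate 4, 6.45 to 9.18 CPM in the other D12 libraries and 9.31 to 13.0 CPM in controls. In the same library Nr5a1, the defining factor of the ventromedial nucleus, was at 0.243 CPM, and the choroid plexus markers summed to 2052 CPM against 16.0 to 116 CPM in the other D12 libraries. Gnrh1 was at 12.3 CPM there, the highest of the 10 libraries. Where leaving it out changed a call or moved a count by over 1.5 times, this is stated below. Of the lower doses, 1 D3 library had a mammillary sum as low, at 3.25 CPM.

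Levels of regional markers also differed between the groups without that library. Nr5a1 was at 4.34, 4.98, 2.99, 0.243 and 4.43 CPM in D12 and at 13.5, 15.0, 9.84, 7.80 and 12.2 CPM in control libraries. Every D12 library lay below every control library, and D12 replicate 4 was close to 0. Markers of the thalamus, which lies above the hypothalamus, summed to 1313, 1319, 1958, 575 and 1003 CPM in D12 and to 491 to 581 CPM in control. Only D12 replicate 4 reached into the control range. In bulk tissue, fewer cells of a type and less RNA per cell cannot be told apart.

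Genes that depend on age in the POA went against the age label in the D12 libraries and in the other exposed MBH groups labelled PND22. POA control libraries did not enter the MBH comparison, but those at PND22 come from the same rats as the MBH controls labelled PND22. In POA controls, 3852 of 14350 genes tested (26.8%) differed between PND42 and PND22. From these, 100 genes higher and 100 genes lower at PND42 were taken by the size of the difference, after the MBH values had been seen, and averaged per library as log2(CPM + 0.5). Thalamic markers also moved in this POA comparison, with 4 of 15 called higher at PND42 and 1 lower (median log2 fold change 0.8). Of the genes tested in both tissues, 13.5% were called higher there and 13.4% lower. How far the 100 higher genes follow thalamic markers was not tested. The 100 higher genes averaged 2.39 to 2.83 in POA controls at PND22 and 3.72 to 4.10 at PND42. In the MBH they averaged 2.71 to 3.21 in controls labelled PND22 and 3.48 to 4.20 in controls labelled PND42. The D12 libraries labelled PND22 stood at 4.19, 3.93, 4.14, 3.65 and 4.25, above every PND22 control and close to the range of PND42 controls. The 100 lower genes averaged 3.64 to 3.88 in MBH controls labelled PND22, 2.70 to 3.30 in MBH controls labelled PND42, and 2.93, 3.02, 3.11, 2.91 and 2.84 in the D12 libraries. In D3 libraries labelled PND22 the higher genes averaged 3.17 to 4.18 and the lower genes 2.79 to 3.05. In D6 libraries these were 3.73 to 4.42 and 2.53 to 3.41, and in ketoconazole libraries 3.88 to 4.47 and 2.40 to 3.13. The lowest D3 library lay inside the PND22 control range for the higher genes. POA libraries labelled D12 and PND22 kept the PND22 level of both sets, at 2.29 to 2.83 and at 3.56 to 3.69. These POA libraries come from the same rats as the MBH D12 libraries labelled PND22. Exposure and these age-dependent levels cannot be told apart in the MBH comparison, and group names below are those of the labels.

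**Figure D1:**
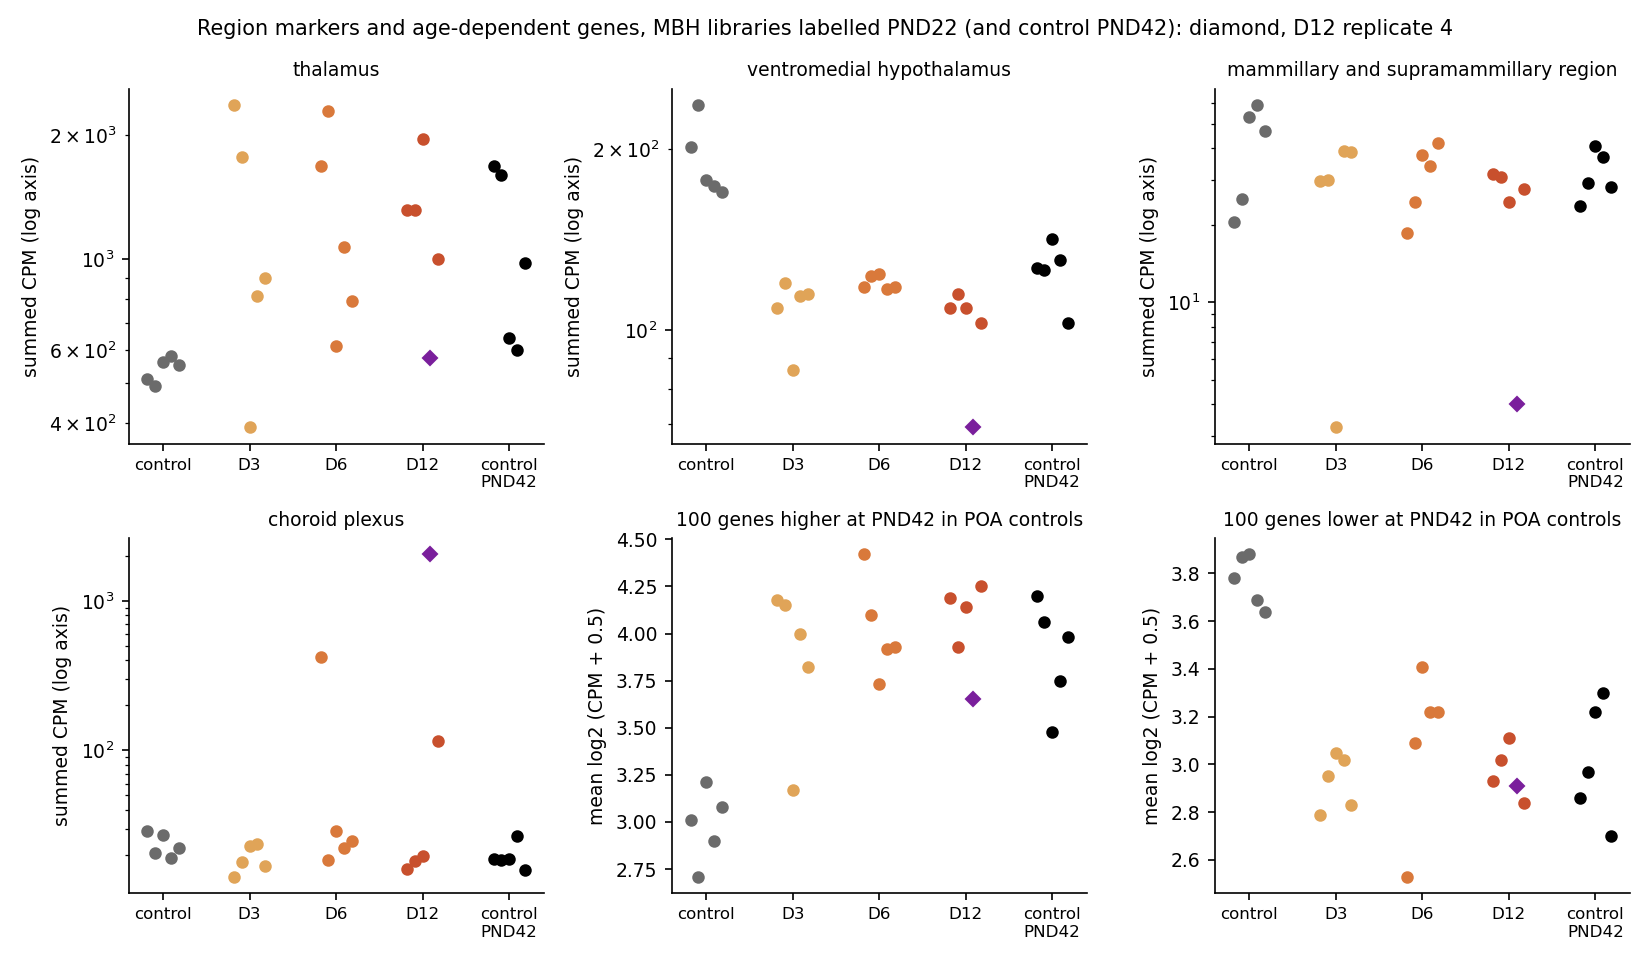
Summed CPM of 4 regional marker lists (log axes) and mean log2(CPM + 0.5) of 100 genes higher and 100 genes lower at PND42 in POA controls, with 1 point per MBH library for the PND22 control, D3, D6 and D12 groups and the PND42 control group; the diamond is D12 replicate 4. The diamond is lowest of the D12 libraries for thalamic, ventromedial and mammillary markers and highest for choroid plexus, at 2052 CPM, while all D12 libraries lie apart from PND22 controls for both age-dependent sets.

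D12 differed from control in 5256 of 14870 genes tested (35.3%), of which 2691 were higher (18.1%) and 2565 lower (17.2%). Most differences were small. The median log2 fold change was 0.45 among genes called higher and fell by 0.52 among genes called lower, and 597 genes changed at least 2-fold. Without D12 replicate 4, 6316 of 14993 genes were called (42.1%), with 3082 higher (20.6%) and 3234 lower (21.6%). Counts of gene lists without replicate 4, given below, are to be set beside these larger shares. The genes called in both fits numbered 5070, all with 1 direction, which was 96.5% of the calls with all 10 libraries and 80.3% of the calls without replicate 4. DESeq2 called 5842 genes with all libraries.

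Measured against the MBH controls labelled PND42, the D12 libraries differed in 0 of 14784 genes tested (0%; edgeR), with 1428 genes at an unadjusted p under 0.05 and 46 genes called by DESeq2. Leaving out D12 replicate 4 gave 0 of 14910 genes (0%) and 2348 at an unadjusted p under 0.05. Genes that were higher at PND42 in POA controls numbered 1938 among the 14308 genes tested in both, and 58.7% of them were called higher in D12 and 0.361% lower, where 18.6% and 17.6% of all 14308 genes were called higher and lower. Of the 1912 genes lower at PND42 in the POA, 49.8% were called lower in D12 and 3.77% higher. The POA controls at PND22 share no library with the MBH comparison, but they come from the same rats as its controls. Seen from the MBH, the first overlap was 42.8% of the 2658 genes called higher in D12, against 13.5% of all 14308 genes, and the second was 37.9% of the 2514 called lower, against 13.4%. The MBH controls labelled PND42 themselves differed from the PND22 controls in 2295 of 14861 genes (15.4%); this comparison shares its PND22 libraries with that of D12.

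The largest changes, 8 in each direction, were ranked among genes called both with all 10 libraries and without D12 replicate 4. Only genes whose groups did not overlap and whose log2 CPM averaged 1 or more were ranked. This leaves out genes of lower level or with overlapping groups. Groups that do not overlap were thus a condition of the choice, met by 22.9% of all genes tested. The largest increase by this rule was that of Shox2, a homeobox factor of thalamic neurons. It was at 18.1, 11.2, 31.5, 3.04 and 8.85 CPM in D12 and at 0, 0.0537, 0.0929, 0.217 and 0.0444 CPM in control, from 1536 counts and 8 counts in all. Prkcd, a protein kinase C of thalamic relay neurons, measured 217, 202, 374, 97.1 and 136 CPM against 15.4, 11.4, 14.4, 7.96 and 13.0 CPM. D12 replicate 4 was the lowest D12 library for both genes, and it lay above every control, as the rule required. The log2 fold change was 7.50 ± 0.77 (SE) for Shox2 and 4.12 ± 0.33 for Prkcd (adjusted p = 0.0001 and 4.2e-05), and 7.75 and 4.29 without replicate 4.

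Gabrd, the δ subunit of extrasynaptic GABA-A receptors, rose by 4.22 ± 0.46 on the log2 scale, from 1.77 ± 0.365 CPM (SD, n = 5) to 31.2 ± 17.0 CPM. Slc17a7, the vesicular glutamate transporter VGLUT1, rose by 4.06 ± 0.42, from 1.84 ± 0.604 to 29.0 ± 16.3 CPM. Ptpn3, a tyrosine phosphatase, rose by 4.13 ± 0.45, from 8.42 ± 0.427 to 140 ± 91.5 CPM. By the rule the groups did not overlap for these 3 genes, and D12 replicate 4 was again the lowest D12 library, at 6.31, 11.9 and 31.4 CPM. Adra2b, an α2 adrenergic receptor, and Rab37, a small GTPase of secretory vesicles, were the other increases named by this rule apart from Oxt, with log2 fold changes of 3.77 and 3.76.

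Of the 15 thalamic markers tested, 11 were called higher (73.3%, against 18.1% of all genes) and 1 lower, with a median log2 fold change of 2.12. The ranges of 8 of them did not overlap with D12 higher, which held for 8.02% of all genes, and 1 did not overlap with D12 lower (14.9% of all genes). After TMM scaling these shares of all genes were 11.2% and 11%. Tcf7l2, the factor that sets thalamic neuron identity, was higher by 2.13, Gbx2 by 4.30, Lhx9 by 2.66 and Rgs16 by 2.14 on the log2 scale. Amotl1 was lower, at a log2 fold change of -0.54. Without D12 replicate 4 the counts were 12 higher and 1 lower, with a median of 2.30. Against MBH controls labelled PND42, whose thalamic sum ranged from 602 to 1686 CPM, 0 of these markers were called and their median log2 difference was 0.28. Lower doses spread widely for the same sum, from 390 to 2367 CPM in D3 and from 615 to 2288 CPM in D6.

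Within the same limits on level and overlap, the largest decrease was that of Alox15, an arachidonate lipoxygenase. It measured 5.54, 3.83, 6.69, 9.11 and 5.92 CPM in D12 and 66.8, 39.5, 86.0, 36.5 and 54.2 CPM in control. The groups were far apart, and the log2 fold change was -3.12 ± 0.26 (adjusted p = 5.1e-05), or -3.28 without D12 replicate 4. Pgr15l, an orphan G protein-coupled receptor, was at 5.49, 2.49, 5.98, 9.35 and 3.13 CPM against 38.8, 42.9, 28.5, 29.9 and 30.6 CPM, a log2 fold change of -2.63 ± 0.28 (adjusted p = 0.00014). D12 replicate 4 was the D12 library nearest to the controls for both. The other 6 decreases named by the rule were smaller. The collagens Col19a1, Col22a1 and Col24a1 had log2 fold changes of -2.41, -1.83 and -1.82, the metalloprotease Tll2 -2.33 and the collagen receptor subunit Itga1 -1.94. Slc4a1, the anion exchanger of red blood cells, was lower by the log2 value -1.85, and of 6 red blood cell markers tested 2 were called lower (33.3%, against 17.2% of all genes).

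**Figure D2:**
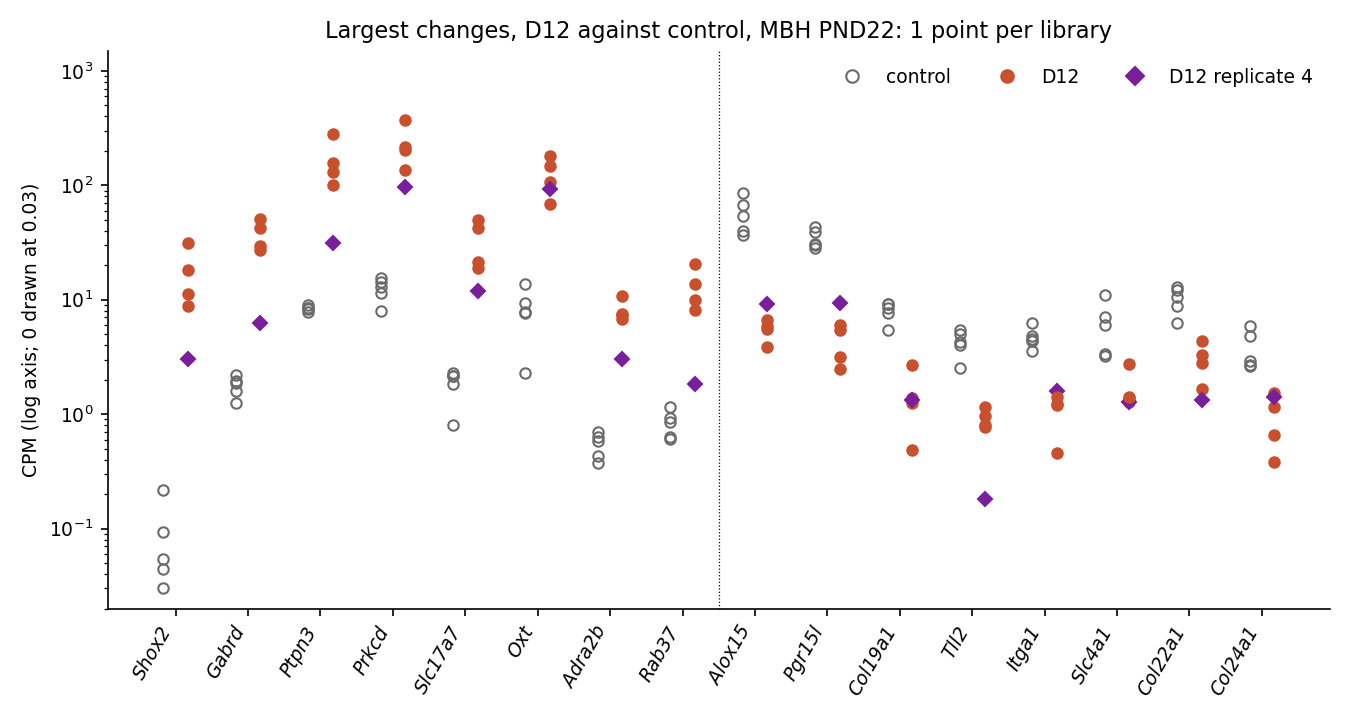
CPM per library on a log axis for the 8 genes with the largest increase (left) and the 8 with the largest decrease (right). They were ranked among genes called with and without D12 replicate 4 whose groups did not overlap and whose log2 CPM averaged 1 or more. Open circles are control, filled circles D12 and diamonds D12 replicate 4, and a count of 0 is drawn at 0.03. Prkcd stands at 97.1 to 374 CPM in D12 against 7.96 to 15.4 CPM in control, and Alox15 at 3.83 to 9.11 against 36.5 to 86.0 CPM.

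Most of these 16 genes also differed with age in the POA. Of the 15 tested there, 11 differed between POA controls at PND42 and PND22, all 11 in the direction seen in D12, where 26.8% of all genes differed. The 16 were chosen as called in D12, and such genes had larger shares. Of all genes called higher in D12, 42.8% were called higher at PND42 in the POA and 2.71% lower. Of all genes called lower, 37.9% were called lower there and 0.278% higher. Alox15 fell from 43.0 ± 17.5 CPM at PND22 to 5.82 ± 1.85 CPM at PND42 in POA controls (SD, n = 5 each). Gabrd rose by 2.67 on the log2 scale, from 1.32 ± 0.524 to 8.5 ± 9.9 CPM. Shox2, Ptpn3 and Prkcd also spread widely in POA controls at PND42, at 0.648 to 19.4, 12.6 to 143 and 30.3 to 162 CPM. The part of single libraries in these rises was not tested. Against MBH controls labelled PND42, 0 of the 16 genes were called, and the remaining log2 differences ran from -1.23 ± 0.43 for Col19a1 to 0.61 ± 0.72 for Slc17a7. Itga1 was at -1.14 ± 0.29, Pgr15l at -0.92 ± 0.34, Col22a1 and Col24a1 at -0.85 and Tll2 at -0.81, each with the sign seen against PND22 controls. Alox15 and Slc4a1 had the opposite sign, at 0.26 and 0.40, and Prkcd was at 0.41.

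Both magnocellular hormones were higher in D12. Oxt encodes oxytocin and Avp encodes vasopressin, which are made in the paraventricular and supraoptic nuclei and released from the posterior pituitary. Oxt measured 106, 147, 68.0, 93.0 and 181 CPM in D12 and 9.31, 13.6, 7.66, 2.28 and 7.81 CPM in control, so the lowest D12 library was above the highest control. The log2 fold change was 3.96 ± 0.38 (adjusted p = 7.2e-05), and 4.03 without D12 replicate 4 (adjusted p = 3e-05). Avp measured 148, 90.9, 44.2, 91.4 and 234 CPM against 25.5, 42.6, 26.0, 8.78 and 23.1 CPM. The groups came close at 44.2 and 42.6 CPM but did not overlap, and the log2 fold change was 2.37 ± 0.44 (adjusted p = 0.0028), or 2.46 without replicate 4. Of 7 magnocellular genes tested, 2 were called higher (28.6%, against 18.1% of all genes) and 1 lower (14.3%, against 17.2%), the developmental factor Sim1 (-0.58 ± 0.13).

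Of the 8 largest increases, Oxt alone was not called with age in the POA. POA controls had 126 ± 85.8 CPM at PND22 and 114 ± 54.5 CPM at PND42 (log2 fold change -0.13, adjusted p = 0.89), and Avp did not pass either (0.30, adjusted p = 0.69). In the MBH, however, controls labelled PND42 had a mean of 104 CPM of Oxt and 110 CPM of Avp, against which the D12 libraries differed by 0.23 ± 0.27 (adjusted p = 0.77) and 0.19 ± 0.38 (adjusted p = 0.87). The D3 and D6 groups averaged 111 and 104 CPM of Oxt, and 116 and 105 CPM of Avp. Of the MBH groups compared here, the PND22 controls had the lowest mean of both hormones.

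Estrogen receptors bind DNA at a response element made of the arm GGTCA, 3 further bases and the reverse complement TGACC. The promoters of these 2 hormones are therefore shown, with every arm on either strand (GGTCA or TGACC) and every E-box CACGTG, the site of clock and related factors, in capitals. They are the 250 bases before the start of each gene in RefSeq, on GRCr8 (the counts were made on the older Rnor_6.0), Oxt at chr3:138235504-138235753 on the plus strand and Avp at chr3:138248523-138248772 on the minus strand.
Oxt: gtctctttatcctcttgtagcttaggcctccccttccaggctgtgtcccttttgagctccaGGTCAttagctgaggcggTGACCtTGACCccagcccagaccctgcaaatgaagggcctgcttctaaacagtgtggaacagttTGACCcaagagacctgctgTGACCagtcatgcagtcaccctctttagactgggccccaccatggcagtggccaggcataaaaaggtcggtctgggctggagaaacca
Avp: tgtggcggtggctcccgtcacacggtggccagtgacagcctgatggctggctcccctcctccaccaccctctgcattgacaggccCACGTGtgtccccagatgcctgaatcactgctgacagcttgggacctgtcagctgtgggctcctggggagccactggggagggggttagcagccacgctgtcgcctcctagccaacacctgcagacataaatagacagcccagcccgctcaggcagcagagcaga
The Oxt promoter held 5 arms and 0 full elements, and the Avp promoter 0 arms and 1 E-box. Among 33469 rat promoters of this length, 35.4% had at least 1 arm, 0.0508% had 5 or more, 0.0239% had a full element and 5.59% had an E-box. These matches describe letters only.

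Genes for the control of GnRH secretion and puberty were lower more often than higher, with 8 of 16 called lower (50%, against 17.2% of all genes) and 4 higher (25%, against 18.1%). Without D12 replicate 4 the counts were 9 and 2. Nkx2-1, a homeobox factor that defines the ventral hypothalamus, was at 9.96, 13.0, 9.43, 9.96 and 11.8 CPM in D12 against 26.0, 27.8, 29.9, 24.5 and 23.9 CPM in control. That decrease was uniform over the libraries, with a log2 fold change of -1.21 ± 0.11 (adjusted p = 7.2e-05). Igsf10, needed for the migration of GnRH neurons, fell from 26.2 ± 4.23 to 11.9 ± 2.81 CPM (-1.06 ± 0.16, adjusted p = 0.0011). Mkrn3, a repressor of puberty whose hypothalamic level declines before puberty starts, measured 1.69, 1.29, 2.38, 1.76 and 1.30 CPM against 3.48, 3.38, 3.62, 3.30 and 2.31 CPM. A single D12 library just exceeded the lowest control, and the log2 fold change was -0.86 ± 0.21 (adjusted p = 0.0095). In POA controls Mkrn3 fell by 1.11 between PND22 and PND42.

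The peptides of the arcuate kisspeptin neuron did not move together. Pdyn, which encodes dynorphin, the brake on these cells, was at 84.2, 81.3, 74.3, 41.3 and 111 CPM against 158, 199, 138, 138 and 136 CPM. Every D12 library was below the controls, and the log2 fold change was -0.88 ± 0.21 (adjusted p = 0.0081). Tac3, which encodes neurokinin B, was higher by 0.34 with all libraries (adjusted p = 0.042), which remained called after dropping single libraries in 2 of 10 cases and was not called without D12 replicate 4 (0.25, adjusted p = 0.085). Kiss1 measured 1.28, 2.40, 1.93, 4.31 and 1.35 CPM against 2.61, 2.74, 1.30, 1.25 and 1.91 CPM. The groups overlapped, with a log2 difference of 0.26 ± 0.35 (adjusted p = 0.58).

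The call for Gnrh1, which encodes GnRH itself, was not stable. It was at 0.950, 1.75, 1.57, 12.3 and 2.07 CPM in D12 and at 1.45, 1.83, 0.836, 0.379 and 0.844 CPM in control. With D12 replicate 4 the log2 fold change was 1.85 ± 0.67 (adjusted p = 0.049), and without it the difference was 0.65 (adjusted p = 0.18). Among the fits with a single library dropped, only those without D12 replicate 1 or 3 kept the call. Nsmf, a factor in GnRH neuron migration, and Sema7a, a semaphorin, were called higher at 1.47 and 1.19.

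Among the nuclear receptors Esr1, Esr2 and Pgr, Esr1 was the one called, and its change was smaller with D12 replicate 4 than without it. It measured 6.53, 8.81, 7.05, 16.9 and 6.01 CPM in D12 and 20.0, 17.9, 16.0, 15.3 and 16.1 CPM in control. D12 replicate 4 lay within the control range, and the other D12 libraries lay below all controls. The log2 fold change was -0.85 ± 0.24 (adjusted p = 0.017) with it and -1.19 (adjusted p = 6.6e-05) without it. The progesterone receptor Pgr, an estrogen-induced gene, had a log2 difference of -0.32 (adjusted p = 0.26), and was called without replicate 4 at -0.52 (adjusted p = 0.044). For Esr2 the difference was -0.06 ± 0.32 (adjusted p = 0.9), at 0.968 ± 0.458 against 1.04 ± 0.282 CPM. Aromatase, Cyp19a1, which makes estradiol from testosterone, differed by 0.22 (adjusted p = 0.74) with replicate 4 and by -0.61 (adjusted p = 0.06) without it.

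Over the 17 genes of steroid receptors and steroid synthesis, 2 were called higher (11.8%, against 18.1% of all genes) and 1 lower (5.88%, against 17.2%). Without D12 replicate 4 they were 3 and 4, where 20.6% and 21.6% of all genes were called. The orphan receptor Esrra and the 5α-reductase Srd5a1 rose by 0.66 and 0.78. Of 13 known target genes of estrogen receptors, 0 were higher and 1 was lower (7.69%), the chemokine Cxcl12 (-0.42, adjusted p = 0.031), which remained called after dropping single libraries in 4 of 10 cases. Without D12 replicate 4, 3 were lower.

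Peptides of arcuate and neighboring neurons were called about as often as other genes, with 3 higher and 3 lower of 19 (15.8% each, against 18.1% and 17.2% of all genes), and 2 higher and 4 lower without D12 replicate 4. The values of single peptides were far apart. Vip, a peptide of the suprachiasmatic nucleus, cortex and thalamus, was at 37.3, 17.0, 26.3, 6.68 and 32.0 CPM in D12 and at 0.676, 1.72, 4.09, 3.30 and 2.44 CPM in control (3.37 ± 0.49, adjusted p = 0.00077). Cck, a peptide abundant in cortex and thalamus, was at 59.7, 45.8, 74.2, 6.13 and 51.1 CPM against 4.87, 9.24, 10.9, 11.8 and 7.99 CPM. For Cck, D12 replicate 4 lay inside the control range, and the log2 fold change was 2.49 ± 0.48 (adjusted p = 0.0033) with it and 2.76 without it. Npw, which encodes neuropeptide W, was close to 0 in D12, at 0 to 4 counts per D12 library against 43 to 78 per control library (-4.73 ± 0.49, adjusted p = 0.00012). Agrp, the orexigenic peptide of the arcuate nucleus, was lower by the log2 value -1.35 (adjusted p = 0.023). Pomc, the precursor of α-MSH, differed by -0.26 (adjusted p = 0.70) and was at 3.04 CPM in D12 replicate 4.

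Myelin genes were higher in D12. Of 14 markers of myelinating oligodendrocytes, 11 were called higher (78.6%, against 18.1% of all genes) and 0 lower, with a median log2 fold change of 0.55. Mog, a myelin surface protein, was at 297, 266, 224, 304 and 334 CPM against 149, 135, 160, 181 and 176 CPM. The groups did not overlap, and the log2 fold change was 0.91 ± 0.12 (adjusted p = 0.00046). Mbp, the main myelin basic protein, rose by 0.95, Opalin by 1.01 and Hapln2, a protein of the node of Ranvier, by 1.44.

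Markers of precursors and newly formed oligodendrocytes went both ways, with 6 of 11 lower (54.5%, against 17.2% of all genes) and 3 higher (27.3%, against 18.1%), or 6 and 2 without D12 replicate 4. Gpr17, a receptor of cells about to myelinate, was at 42.6, 39.8, 37.7, 49.2 and 30.9 CPM in D12 and at 104, 102, 118, 97.5 and 97.1 CPM in control. The groups were far apart, and the log2 fold change was -1.30 ± 0.10 with the lowest adjusted p of the named genes (3.9e-05). Enpp6 fell by 0.72 and Pdgfra by 0.50. The 3 higher genes were Bcas1 (0.60), C1ql1 (0.42) and Olig1 (0.31), of which C1ql1 was not called without replicate 4 (0.42, adjusted p = 0.054). In POA controls Gpr17 fell from 128 ± 37.0 CPM at PND22 to 46.4 ± 5.91 CPM at PND42, and Opalin rose by 0.71. Against MBH controls labelled PND42 the D12 difference in Gpr17 was 0.07 ± 0.12 (adjusted p = 0.85).

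Of 12 microglial markers 6 were called higher (50%, against 18.1% of all genes) and 0 lower, and 8 and 0 without D12 replicate 4 (20.6% of all genes higher), among them Ctss (0.57) and Aif1 (0.63). Pericyte genes fell, with Rgs5 at -0.94, Pdgfrb at -0.81 and Abcc9 at -0.85, and 4 of 11 endothelial and pericyte genes were lower (36.4%, against 17.2% of all genes) with 0 higher. Tanycytes, the ependymal cells that line the floor of the third ventricle, had 3 of 8 markers lower (37.5%), led by the orphan receptor Gpr50 at -1.72. Of 12 astrocyte markers 2 were higher (16.7%) and 1 lower (8.33%), both below the shares of all genes, and the median log2 fold change was 0.03. Without D12 replicate 4 they were 4 higher and 1 lower. The choroid plexus list had 2 of 8 genes higher (25%) with D12 replicate 4, and 1 higher and 1 lower without it. Its median log2 fold change moved from 1.17 to 0.04. Ttr, the thyroid hormone carrier made by choroid plexus, was at 0.702, 0.554, 0.355, 1846 and 88.1 CPM in D12 and at 0.107 to 0.844 CPM in control. The call for Ttr held without replicate 4 (6.01, adjusted p = 0.011), where replicate 5 alone was high.

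Genes of DNA methylation and of the polycomb complexes, which silence genes through chromatin, were mostly lower. Of 20 tested, 12 were called lower (60%, against 17.2% of all genes) and 2 higher (10%, against 18.1%), with a median log2 fold change of -0.38. Dnmt3a, a de novo DNA methyltransferase, was at 17.6, 15.3, 21.2, 23.6 and 10.5 CPM in D12 and at 43.2, 47.0, 40.2, 36.5 and 41.2 CPM in control. No D12 library reached the controls, and the log2 fold change was -1.17 ± 0.16 (adjusted p = 0.00068). The polycomb readers Cbx6 and Cbx7 moved in opposite directions, at -0.60 and 0.55. In POA controls, Dnmt3a fell by 1.01 between PND22 and PND42.

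Receptor and channel genes were called lower more often than all genes (17.2%), and higher at shares near that of all genes (18.1%). Of 21 genes for GABA receptors, synthesis and transport, 9 were lower (42.9%) and 4 higher (19%), or 12 and 4 without D12 replicate 4. Without that library 21.6% of all genes were called lower and 20.6% higher. The θ and ε subunits Gabrq and Gabre, enriched in the hypothalamus, fell by 1.35 and 1.48. Of 31 glutamate receptor and transporter genes 9 were lower (29%) and 5 were higher (16.1%), such as the metabotropic receptor Grm3 at 1.33. Of 22 calcium channel subunits 7 were lower (31.8%) and 3 higher (13.6%), and Cacna2d1, the α2δ subunit bound by gabapentin, fell from 115 ± 7.41 to 43.8 ± 11.2 CPM. In cAMP and CREB signaling 8 of 25 genes were lower (32%) and 1 higher (4%), or 9 and 3 without D12 replicate 4, with the adenylate cyclase Adcy6 at -0.51 and the kinase subunit Prkacb at -0.94. In growth hormone and insulin-like growth factor signaling 7 of 23 were lower (30.4%) and 1 higher (4.35%), with Stat3 at -0.63, the growth hormone receptor Ghr at -0.77 and the binding protein Igfbp5 at 0.62.

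Genes of cholesterol synthesis were higher by small amounts, with 9 of 21 genes called higher (42.9%, against 18.1% of all genes) and 1 lower. Pmvk, Msmo1 and Mvk, enzymes of the pathway, rose by 0.62, 0.58 and 0.49. Of 18 genes for PPAR and RXR receptors and their targets, 2 were higher (11.1%) and 3 lower (16.7%, against 17.2% of all genes), both at or below the shares of all genes.

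Of 15 clock genes 5 were higher (33.3%, against 18.1% of all genes) and 1 lower (6.67%, against 17.2%), or 5 and 2 without D12 replicate 4. Dbp, an output gene of the clock, was at 112, 129, 119, 110 and 160 CPM in D12 and at 69.3, 64.4, 63.6, 55.9 and 69.7 CPM in control (1.05 ± 0.11, adjusted p = 0.00014). Ciart, a repressor of the clock, was at 12.6, 12.9, 17.5, 12.4 and 14.2 CPM against 7.43, 5.64, 5.15, 4.88 and 6.44 CPM (1.32 ± 0.14, adjusted p = 0.00016). Neither gene overlapped between groups. Per3 moved the other way, at -0.77. Among 13 immediate early genes 3 were higher (23.1%) and 0 lower, but 2 were higher and 2 lower without D12 replicate 4, and the median log2 fold change went from 0.55 to 0.29. Dusp1 was at 1.34, or 1.35 without replicate 4. Fos passed with all libraries (0.77, adjusted p = 0.049) but in 4 of 10 cases after dropping single libraries, and not without D12 replicate 4 (0.62, adjusted p = 0.089). In POA controls Dbp and Ciart rose by 0.74 and 0.93 from PND22 to PND42. The hour at which each rat was killed is not in the labels, and its part in these values was not tested.

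Clock factors bind the E-box CACGTG, and the promoter of Ciart is shown for its E-boxes, in capitals. It is the 250 bases before the gene's start in RefSeq, at chr2:186112247-186112496 on the minus strand of GRCr8.
Ciart: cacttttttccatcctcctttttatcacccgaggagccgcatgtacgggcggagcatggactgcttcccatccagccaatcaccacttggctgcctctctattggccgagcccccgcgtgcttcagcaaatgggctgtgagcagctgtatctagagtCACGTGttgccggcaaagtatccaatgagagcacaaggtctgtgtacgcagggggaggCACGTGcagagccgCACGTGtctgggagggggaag
It held 3 E-boxes, and 0.0508% of the 33469 promoters held 3 or more.

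**Figure D3:**
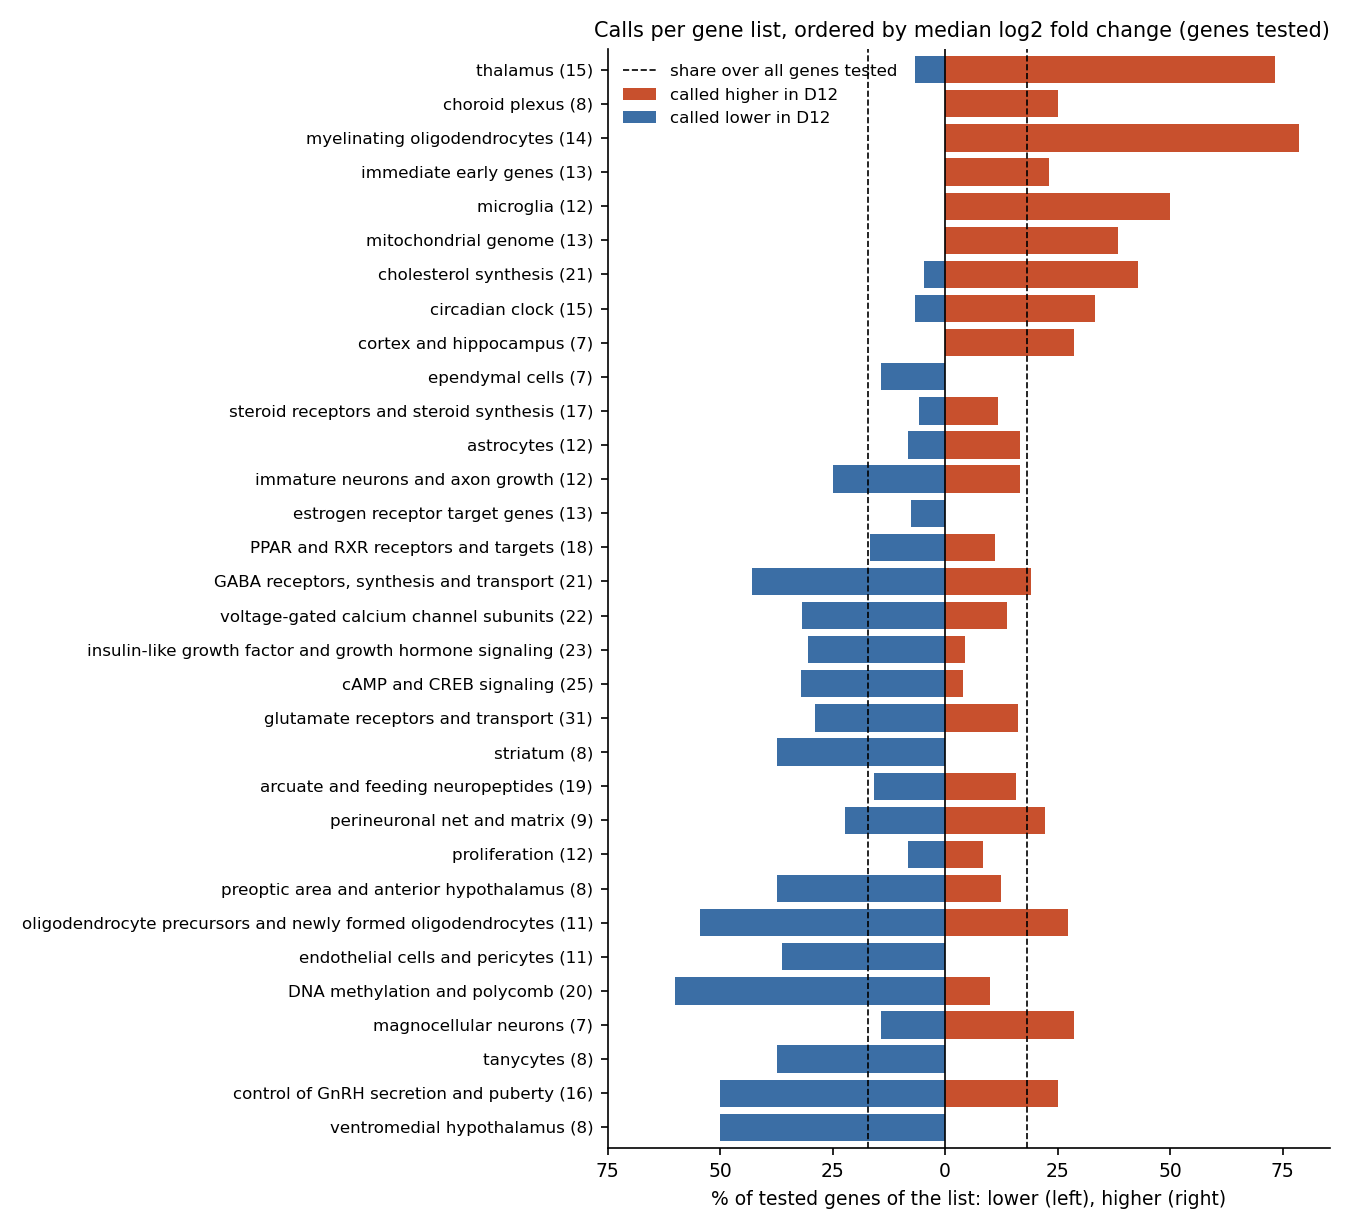
For each gene list with at least 7 tested genes, the percentage of its tested genes called lower in D12 (left) and higher in D12 (right), ordered by the median log2 fold change, with the number tested in parentheses; dashed lines mark 17.2% and 18.1%, the shares over all genes tested. Myelinating oligodendrocytes (78.6%) and thalamus (73.3%) lead the higher calls, and DNA methylation and polycomb (60%) the lower calls.

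Leaving out D12 replicate 4 changed few calls among the named genes, which their choice fixed in part. The 8 largest changes in each direction were named only if called both with and without that library. By the rule that chose them, 129 genes were named, of which 50 were called higher, 58 lower and 21 not called. Over all genes tested 35.3% were called. Apart from the fixed set, named genes were chosen by fold change or p in this comparison, so their count is no result. With and without the library, 102 were called in both fits, 6 only with all 10 libraries, 8 only without replicate 4 and 13 in neither. Gnrh1, Sostdc1, Tac3, Fos, Pde10a and Gpr6 were called only with it. Esr1 and Cck changed more strongly without it. The 8 include Foxb1, one of the transcripts by which the library was set apart, so its call is no result. Lmx1a, a second such transcript, was at 9.54, 8.17, 6.34, 2.79 and 7.70 CPM in D12 and 2.46, 3.44, 14.3, 20.1 and 14.5 CPM in control. Its controls alone spread over more than the distance between the groups.

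**Figure D4:**
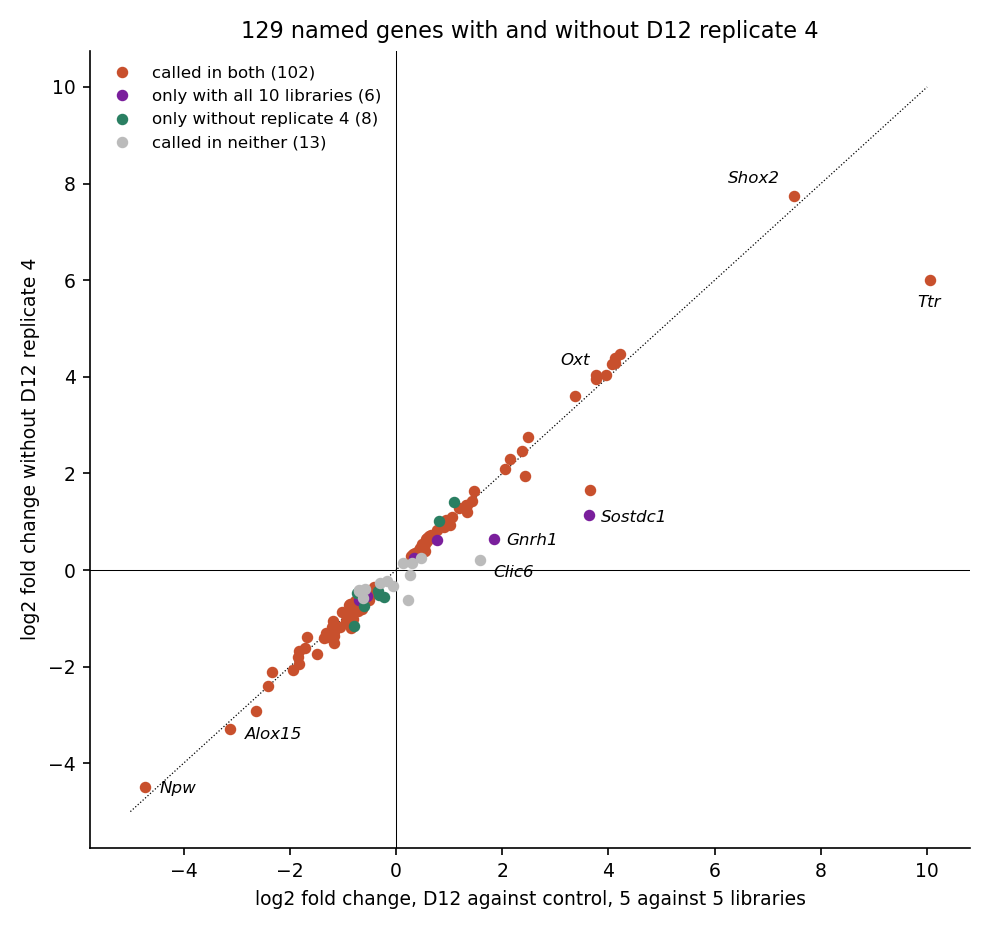
Log2 fold change of D12 over control with all 10 libraries (x axis) and without D12 replicate 4 (y axis), 1 point per named gene, colored by the fits in which it was called; the dotted line marks equal values. Most genes lie on the line, and Ttr, Sostdc1, Gnrh1 and Clic6 lie below it.

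Among DES doses with the same age label, no gene was called between D12 and a lower dose. Against control, D3 differed in 2247 genes (15.2%) and D6 in 803 genes (5.41%), in comparisons that share the control libraries. Of the named genes, 69 of 125 tested were called in D3 and 52 of 128 in D6. Most named genes were chosen by their change in D12 against these same controls, so these counts do not compare the doses. D12 differed from D3 in 0 of 14703 genes (0%; edgeR, 551 at an unadjusted p under 0.05, 1 by DESeq2) and from D6 in 0 of 14784 (0%; 124 at an unadjusted p under 0.05, 3 by DESeq2). Alox15 averaged 5.38 CPM in D3, 6.13 CPM in D6 and 6.22 CPM in D12, within the spread of the libraries. Esr1 averaged 16.4 ± 18.4, 10.1 ± 5.95 and 9.07 ± 4.52 CPM (SD, n = 5), and the ranges of the 3 doses overlapped.

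In the POA at PND22, the same dose gave 29 calls among 14325 genes (0.202%), and 748 by DESeq2. Of the named genes 0 of 121 tested were called there. The effect differed between the tissues in 3738 of 15118 genes (24.7%) by the interaction term, fitted with each rat as a block. The Oxt effect was larger in the MBH by 3.17, that of Prkcd by 4.19, and that of Alox15 was more negative by the log2 value -2.90. In the POA, Oxt averaged 126 CPM in control and 190 CPM in D12, and Alox15 43.0 and 38.9 CPM.

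At later ages the same dose gave fewer calls in the MBH. At PND42 it gave 38 calls among 14764 genes (0.257%), which included 3 named genes, Alox15, Gpr17 and Pdgfra. At PND90 it gave 890 of 14618 (6.09%), 260 higher (1.78%) and 630 lower (4.31%), with 16 named genes. Levels of age-dependent genes went against the label in controls and in some D12 libraries labelled PND90. In MBH libraries labelled PND42, the 100 genes higher at PND42 in the POA averaged 3.48 to 4.20 in control and 3.55 to 4.54 in D12. POA controls at PND42 stood near, at 3.72 to 4.10. Alox15 averaged 5.27 CPM in control and 0.937 CPM in D12 labelled PND42, and 48.6 CPM in control and 22.9 CPM in D12 labelled PND90. POA controls averaged 5.82 CPM at PND42 and 1.51 CPM at PND90. For the 100 genes lower at PND42 in the POA, MBH controls labelled PND90 averaged 3.81 to 3.90, and D12 libraries labelled PND90 3.43, 3.54, 2.90, 2.71 and 2.85. Whether the age labels of these libraries hold was not tested further.

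**Figure D5:**
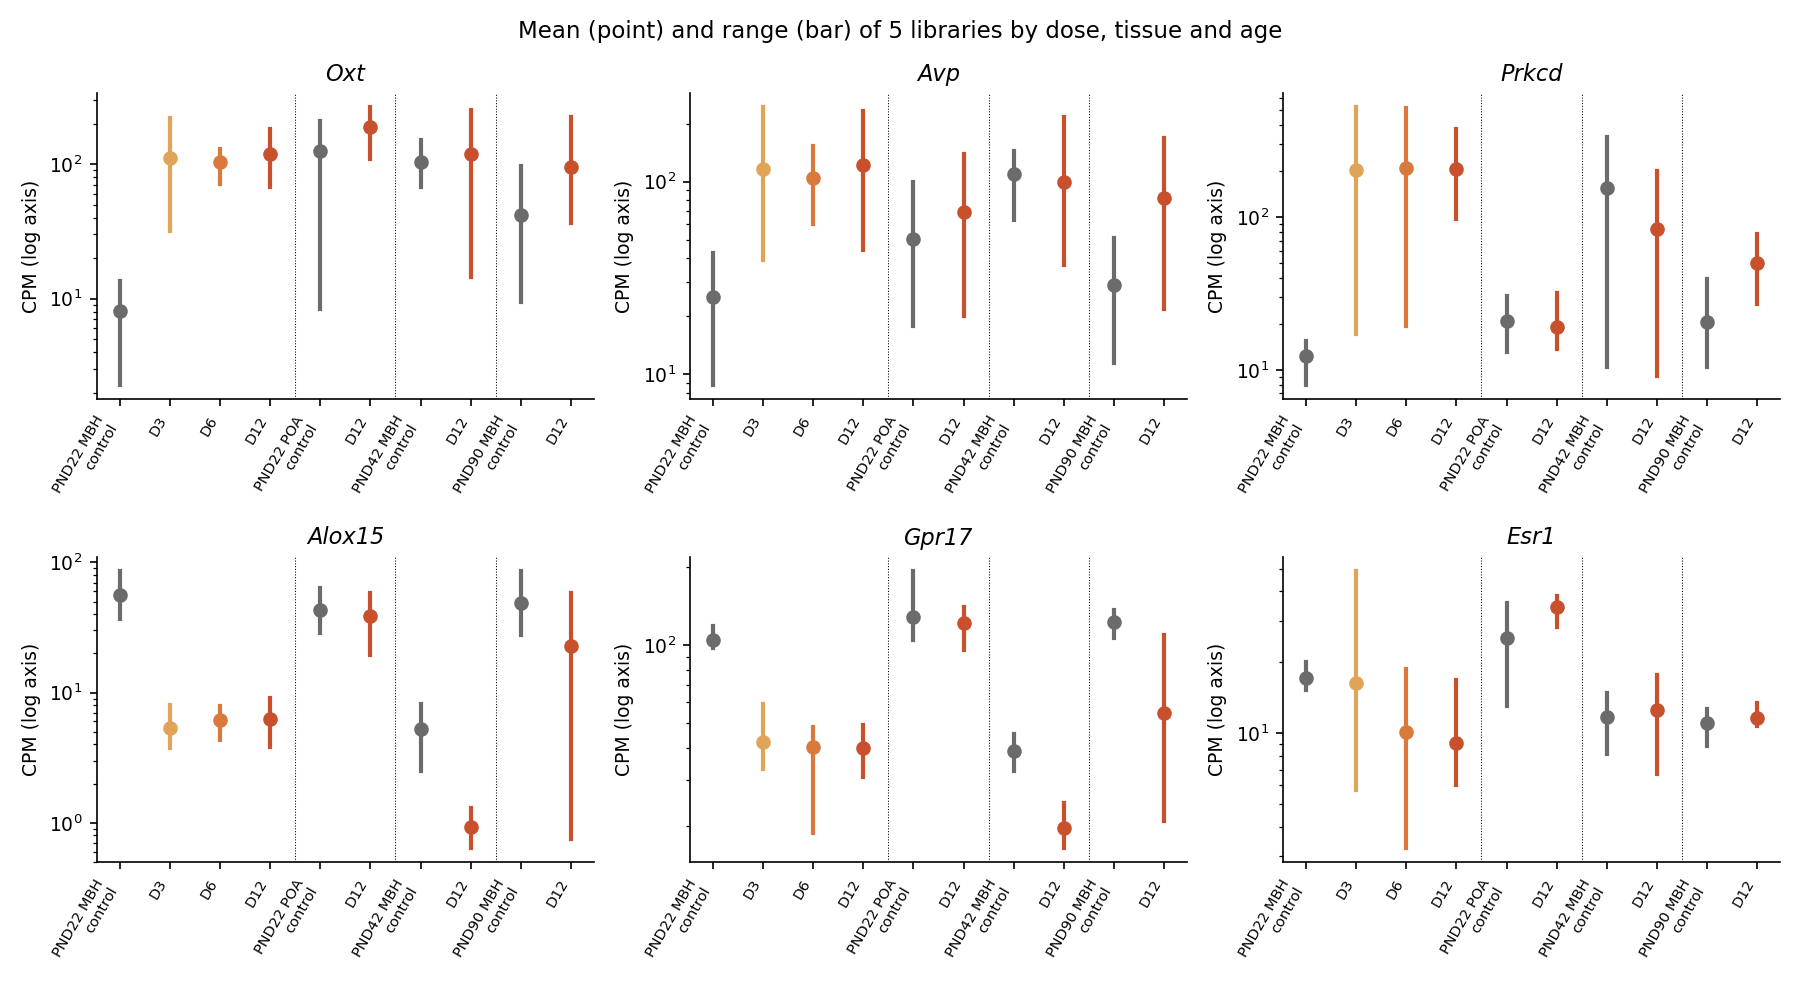
Mean (point) and range (bar) of 5 libraries in CPM on log axes for 6 genes, in MBH control, D3, D6 and D12 libraries labelled PND22, then control and D12 of the POA at PND22 and of the MBH at PND42 and PND90. In the MBH at PND22 all DES doses of Oxt, Alox15 and Gpr17 lie on 1 side of control, and PND42 controls lie at the level of the DES groups.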

How the data were processed

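Stranded mRNA libraries of the MBH and POA were sequenced in paired reads, with base calls by bcl2fastq 2.20 per the submitters' processing notes. The authors deposited raw gene counts, not normalized, in 1 table per tissue, made with STAR and featureCounts on Rnor_6.0, with 32883 genes, of which 396 rows carry no symbol; the strand setting and the handling of multi-mapping reads are not given in the sources used here, so values of overlapping or near-identical genes are uncertain. From these counts, genes were filtered with filterByExpr (minimum count 10), scaled by TMM and tested with edgeR 4.0.16 (quasi-likelihood F test, Benjamini-Hochberg adjustment, adjusted p under 0.05) in R 4.3.3, with 5 libraries per group and no block, since same-numbered libraries did not pair (correlations of deviations -0.193 to 0.071). CPM used total counts. The tissue interaction kept each rat as a block. Standard errors were derived from the fold change and its F value. DESeq2 1.42.0, other scalings, filters, groupings and left-out libraries were alternatives. Scripts were tested on simulated data.

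Named genes were the 8 largest changes in each direction, the 3 most significant of each of 36 gene lists and a fixed set of puberty and receptor genes. The largest changes had to be called with and without D12 replicate 4, with mean log2 CPM at least 1 and groups not overlapping. Members and lists were chosen with earlier results of these data known. Genes named outside that rule, such as Gbx2, Agrp and Pomc, were picked after their values were seen. Promoters came from RefSeq (GRCr8): 87 of 129 named genes matched by symbol. Some genes are not reported here. In any sentence, an adjusted p is that of edgeR.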

Additional observations from a re-analysis of the deposited data

Results flagged for a closer look

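Within the groups of 5 libraries, 19 of 250 gene and group pairs had a highest or lowest library set apart from the rest by Dixon's criterion, where chance gives about 1 in 20, or 12.5. In D12 replicate 4 this held for 10 genes. It was the highest D12 library for Ttr (1846 CPM), Clic6 (58.8 CPM), Dcx (57.9 CPM), Lrrc55 (25.4 CPM), Sostdc1 (22.1 CPM), Esr1 (16.9 CPM), Gnrh1 (12.3 CPM), Cyp19a1 (5.10 CPM) and Tbr1 (2.85 CPM), and the lowest for Stat3 (64.8 CPM). Among the other D12 libraries, Slc4a1 was high in replicate 3 (2.74 CPM) and Gpr6 in replicate 2 (5.21 CPM). Control replicate 2 was the highest for Nptx2 (150 CPM) and Tbx19 (10.4 CPM) and the lowest for Pcna (30.1 CPM) and Enpp6 (20.0 CPM). Single control libraries stood apart for S100b (1415 CPM, replicate 3), Mkrn3 (2.31 CPM, lowest, replicate 5) and Tbr1 (0.676 CPM, replicate 1).

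The effect of D12 at PND22 differed between MBH and POA, by the interaction term of edgeR, in 3738 of 15118 genes (24.7%). Among them were 17 of the 30 named genes examined. Apart from the fixed set, these genes were chosen by their change in the same MBH libraries, so that count is no result. On the log2 scale the MBH effect minus the POA effect was 6.10 for Shox2, 4.19 for Prkcd, 3.91 for Rab37, 3.44 for Slc17a7, 3.43 for Gabrd, 3.33 for Ptpn3, 3.17 for Oxt and 1.84 for Avp. It was -2.90 for Alox15, -2.81 for Pgr15l, -2.29 for Col19a1, -2.29 for Col24a1, -1.71 for Itga1, -1.41 for Slc4a1, -1.39 for Esr1, -0.97 for Mkrn3 and -0.94 for Igsf10.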

How the results depend on the processing

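For D12 against control in the MBH at PND22, the count of 5256 genes stayed within 1.5 times under DESeq2, other size factors and no filter. It was 2407 in 1 fit of all 7 groups, 2048 in 1 fit of control and the 3 DES groups, 3157 in that fit with DESeq2, and 0 with control libraries labelled PND42 in place of PND22, an alternative chosen after the data were seen. Leaving out 1 library gave 3719 (control replicate 1) to 6316 (D12 replicate 4). Same-numbered libraries did not pair (0 of 5 correlations over 0.1, and 0 D12 libraries correlated best with their own number); with the replicate block the count was 4371. The causes of these shifts were not tested. Against PND22 controls, no named gene called in either of the fits compared changed sign; Cyp19a1, called in neither, went from 0.22 to -0.61 without D12 replicate 4. Against controls labelled PND42, 8 of the 107 named genes called against PND22 controls and tested had the opposite sign, none of them called. Of the 129 named genes, 25 lost their call in the fit of control and the 3 DES groups, and 6 lost and 8 gained it without D12 replicate 4.

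The smaller comparisons depended more on the tool and on single libraries. In the POA, 29 genes became 748 with DESeq2, 16 with no filter and 47 with the replicate block; leaving out 1 library gave 0 to 255, the highest without D12 replicate 1, 145 without control replicate 1, and 0 or 1 without D12 replicate 2, 3, 4 or 5 or control replicate 3, 4 or 5. At PND42, 38 became 450 with DESeq2 and 2 with the replicate block, and 5 (without control replicate 2) to 88 (without D12 replicate 4), with 8 to 18 without D12 replicate 1, 2 or 3 or control replicate 1 or 3. At PND90, 890 became 1838 with DESeq2 and 419 with the replicate block, and 239 (without control replicate 2) to 1710 (without D12 replicate 2), with 1630 without D12 replicate 1 and 273 to 528 without any other library. D12 against D3 and against D6 gave 0 throughout edgeR, and 1 and 3 with DESeq2. The interaction gave 4330 with no replicate block and 2592 to 4249 with 1 rat left out. Depth limited genes near 0 counts, such as Shox2 in control and Npw in D12.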

Other observations

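Lists not described above gave these counts in D12 against control at PND22, where 18.1% of all genes were called higher and 17.2% lower. Without D12 replicate 4 these shares were 20.6% and 21.6%. Of 13 genes of the mitochondrial genome, 5 were called higher (38.5%) and 0 lower, with Mt-nd1 at 6608 ± 630 against 5079 ± 427 CPM (SD, n = 5). Of 12 genes of immature neurons and axon growth, 2 were higher (16.7%) and 3 lower (25%): Stmn1, a tubulin-binding protein, rose by 0.95, and Dcx, a marker of young neurons, fell by 0.84 with D12 replicate 4 at 57.9 CPM as its highest library. Of 12 proliferation genes 1 was higher and 1 lower (8.33% each), or 1 and 2 without D12 replicate 4, with the replication clamp Pcna at 0.30 and the topoisomerase Top2a at -0.75. Of 9 genes of perineuronal nets and matrix 2 were higher and 2 lower (22.2% each), or 2 and 4 without D12 replicate 4, and Tnr, a glycoprotein of these nets, fell from 140 ± 2.52 to 59.4 ± 24.0 CPM. Of 8 striatal markers 3 were lower (37.5%), but 1 without D12 replicate 4. Of 8 markers of the preoptic area and anterior hypothalamus 1 was higher (12.5%) and 3 lower (37.5%). Of 8 ventromedial markers 4 were lower (50%) and 0 higher. Of 7 markers of cortex and hippocampus 2 were higher (28.6%) and 0 lower, and of 5 habenular markers 0 were called, or 1 higher and 1 lower without replicate 4. Of 7 ependymal markers 1 was lower (14.3%), or 2 without replicate 4. Pituitary markers had 2 of 4 lower (50%) and 0 higher, or 2 and 1 without replicate 4. Tshb was at 23.2, 42.4, 46.7, 0 and 41.6 CPM in the D12 libraries, with a log2 difference of 1.10 (adjusted p = 0.24) with replicate 4 and 1.41 (adjusted p = 0.0043) without it.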
